A study of Mus musculus with 10 samples.

Results

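The 29 genes described here encode the enzymes, carriers and regulators of fatty acid oxidation in mouse liver, together with known targets of the nuclear receptor PPARA. They were taken from the deposited gene count table by matching Ensembl identifiers to a list of symbols. They are 29 of 46071 gene rows, and all 29 passed the filter on low counts that kept 14820 genes. The libraries were made from liver RNA of offspring of LIRKO mice, which are homozygous for a floxed insulin receptor gene (Insr lox/lox) and carry 1 copy of Cre under the Albumin promoter, active mainly in hepatocytes. FL offspring (3 libraries, numbered 5 to 7) were sired by LIRKO males on control females, and ML offspring (3 libraries, numbered 8 to 10) were born to LIRKO females mated with control males. Control offspring (4 libraries, numbered 1 to 4) had parents that were both Insr lox/lox without Cre, from a line kept free of Cre by 4 generations of such crosses. All parents in all groups therefore carried the floxed allele, and a LIRKO parent can pass Cre to its young. The labels used here do not give the offspring's own Cre genotype, sex, age, litter, diet or feeding state, nor say whether each library is 1 animal, and p-values therefore refer to library-to-library spread, which may be technical.

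In the liver, fatty acids are burned mainly in mitochondria. Carnitine carries long chains across the mitochondrial membranes, and a spiral of dehydrogenation, hydration, a further dehydrogenation and thiolysis then removes acetyl-CoA, from which ketone bodies are made during fasting. Peroxisomes shorten very long and branched chains by a related spiral. PPARA is bound and activated by fatty acids and, paired with a retinoid X receptor, switches on genes of both pathways in the fasted liver, while insulin after a meal acts against this programme. Of the enzymes that make ketone bodies only Bdh1, which interconverts acetoacetate and beta-hydroxybutyrate, is among the 29 genes.

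Promoter sequences of 23 of the 29 genes, in 25 windows reaching from 250 bases before to 50 bases after the start site, were found in RefSeq (GRCm38.p6). PPARA with its partner binds a direct repeat of AGGTCA with 1 base between the copies. The exact repeat, AGGTCANAGGTCA, was in none of the 23 genes' windows on either strand, against 0.048% of all 27025 genes with windows. With the fourth base of each copy free (AGGNCANAGGNCA) it was also in none, against 0.451% of all genes with windows. At shares this small, finding none among 23 genes is the usual outcome and tells nothing about them. A single AGGTCA, on either strand, was in windows of 4 of the 23 genes (Acadm, Acadvl, Cpt1a and Creb3l3), or 17.4%, against 18.1% of all genes in the table; the exact repeat contains this one. These matches describe letters in these windows and not binding sites. A pair of sequences is shown. The first is the 250 bases before the start site of Acadm, the medium-chain dehydrogenase whose FL values all lay below the controls, on the minus strand at chr3:153944644-153944893, with the match to AGGTCA, here on the opposite strand, in capitals. The second is the 85 bases that separate the outermost GENCODE M21 ends of Hadha and Hadhb on the plus strand at chr5:30155163-30155247, because these genes, which encode the alpha and beta subunits of the mitochondrial trifunctional protein, are transcribed in opposite directions away from it. The RefSeq start site of Hadha lies further into that gene. The 85 bases hold no AGGTCA.
Acadm: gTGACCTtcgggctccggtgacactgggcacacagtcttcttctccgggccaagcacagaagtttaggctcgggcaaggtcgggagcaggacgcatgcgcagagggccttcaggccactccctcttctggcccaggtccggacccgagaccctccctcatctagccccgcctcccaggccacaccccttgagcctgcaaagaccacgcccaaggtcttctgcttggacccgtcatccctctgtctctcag
Hadha and Hadhb: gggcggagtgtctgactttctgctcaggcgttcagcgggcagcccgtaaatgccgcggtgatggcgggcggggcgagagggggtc

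Total counts ran from 23192571 to 31116742 in FL, from 26614915 to 34568205 in ML and from 18655506 to 39379940 in control libraries. Values below are read counts normalised to library size by TMM factors, in the usual unit CPM, unless said otherwise. ML 9 and control 1 stood apart: genes with under 1000 bp of exon lay at a median of 1.67 and 0.51 above their own means on the log2 scale, against -0.56 to 0.34 in the other 8 libraries, and 1 ribosomal RNA gene took 4.69% and 2.1% of the counts, against 0.520 to 1.67%. The TMM factor was 0.577 in ML 9 and 0.933 to 1.16 in the others. Their part in the results was not tested beyond leaving them out. Without control 1, the log2 fold change of 9 of the 29 genes in FL against control turned in sign or moved by over 1.5 times, and without ML 9 that of 20 did so in ML against control and of 12 in FL against ML. Values of single genes without these libraries are given beside the results below. The summed level of 10 hepatocyte markers was 74895 to 85305 CPM in FL, 68419 to 138405 CPM in ML and 76975 to 105661 CPM in control libraries, so the tissue label matched the data. In bulk tissue, fewer cells of a type and less RNA per cell cannot be told apart.

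In FL livers most of these genes lay below the controls, by modest amounts. The median log2 fold change of the 29 genes against control was -0.42, with a range of -1.72 to 0.12, beside a median of -0.05 over all genes tested. In ML livers the median was 0.25, with a range of -0.66 to 1.10, beside -0.05 over all genes. Of the 29 genes, 28 lay below 0 in FL against control, where 55.3% of all genes did, and 11 lay below 0 in ML against control, where 52.9% of all genes did. No single gene of the 29 passed an edgeR adjusted p of 0.05 in any of the 3 comparisons. That threshold was passed by 0.0135% of all genes in FL against control, by 0% in ML against control and by 0.00675% in FL against ML. The lowest adjusted p among the 29 genes was 0.406 in FL against control, 0.301 in ML against control and 0.238 in FL against ML (edgeR).

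Library by library, the mean deviation of the 29 genes from their own means, on the log2 scale, was -0.43, -0.40 and -0.28 in FL 5, FL 6 and FL 7. It was -0.12, 0.40 and 0.52 in ML 8, ML 9 and ML 10, and -0.0051, 0.31, 0.054 and -0.042 in controls 1 to 4. The 3 FL libraries were the lowest of the 10, and ML 9 and ML 10 the highest, with ML 8 between FL and the controls. As a share of all counts, which uses no TMM factor, the 29 genes took 0.690 to 0.720% in FL, 0.624 to 0.986% in ML and 0.798 to 0.940% in control libraries. The FL shares lay below every control, while the ML shares spanned both groups, ML 9 being the lowest library of all by this measure and the second highest by the scaled one.

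**Figure D1:**
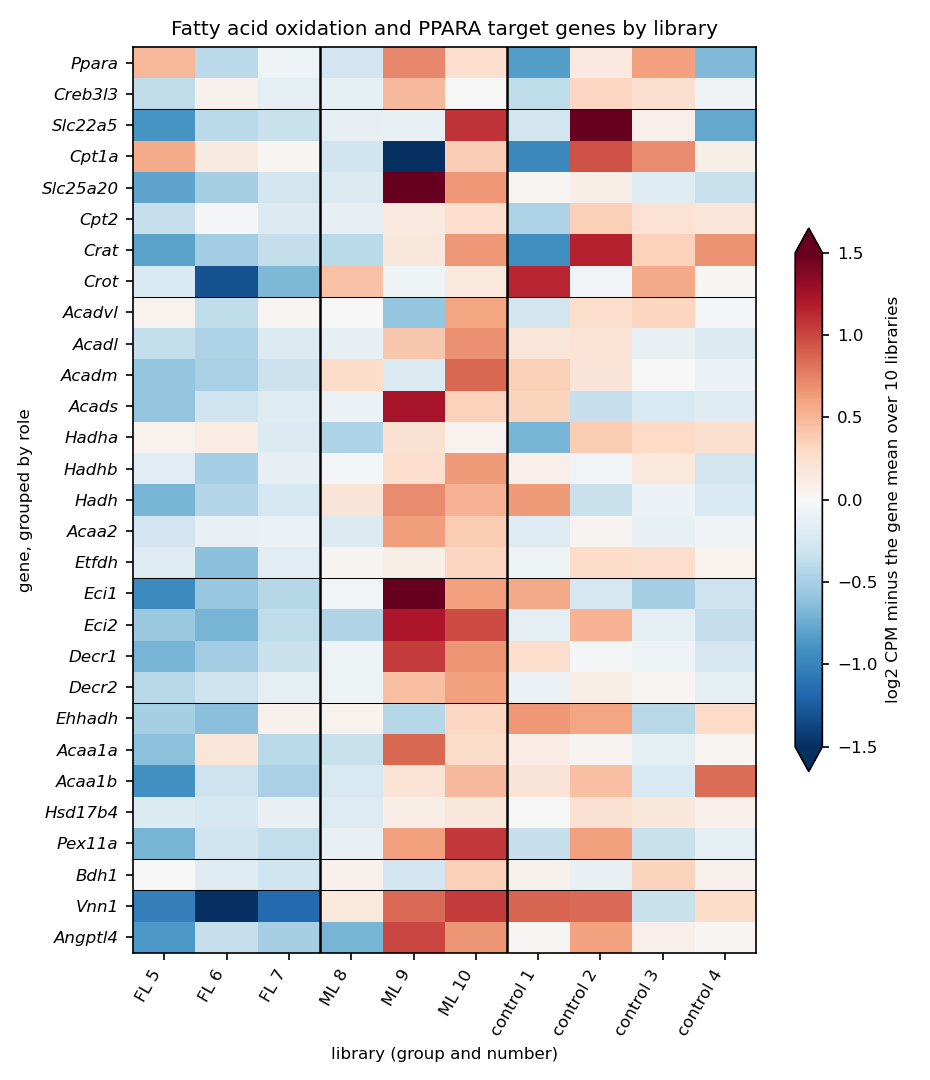
Level of each of the 29 genes in each library, as log2 CPM minus the gene's mean over 10 libraries (colour), with genes grouped by role down the page and FL, ML and control libraries across. The FL columns are mostly blue, ML 9 and ML 10 mostly red, and the control columns mixed.

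The 2 transcription factors at the head of the pathway lay on either side of 0 in FL against control. Ppara itself (ENSMUSG00000022383, chromosome 15, 85734983 to 85802819, plus strand) had 100, 54.1 and 67.7 CPM in FL, 57.9, 117 and 84.6 CPM in ML, and 40.1, 78.3, 109 and 44.7 CPM in control libraries. All groups overlapped. Against control, its log2 fold change was 0.12 in FL (SE 0.40) and 0.35 in ML (SE 0.40), and both took the other sign without control 1 and ML 9, at -0.059 and -0.12. Creb3l3, a liver factor that works with PPARA in fasting, averaged 297 ± 46.1 CPM in FL (SD, n = 3), 361 ± 85.7 CPM in ML (SD, n = 3) and 340 ± 70.2 CPM in control libraries (SD, n = 4), and was at -0.19 (SE 0.29) in FL, or -0.31 without control 1.

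Among genes of the carnitine shuttle, all 6 lay below 0 in FL against control, with a median log2 fold change of -0.73. Crot, the peroxisomal enzyme that attaches medium chains to carnitine (chromosome 5, 8966033 to 8997324, minus strand), had 402, 190 and 294 CPM in FL, 638, 449 and 524 CPM in ML, and 1040, 455, 697 and 475 CPM in control libraries. Every FL value lay below every ML and control value, and FL against control came to -1.18 (SE 0.38) on the log2 scale (edgeR, adjusted p of 0.983). Crat, which makes acetylcarnitine and so buffers acetyl-CoA, was expressed weakly. It had 13.4, 16.2 and 18.3 CPM in FL, 17.7, 26.2 and 36.8 CPM in ML, and 12.4, 52.1, 29.8 and 37.3 CPM in control libraries. Control 1 lay below all 3 FL libraries and the other 3 controls above them, and the log2 fold change of FL against control was -1.04 (SE 0.44), or -1.31 without control 1.

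Cpt1a, the gate through which long chains enter mitochondria and the step blocked by malonyl-CoA, had levels that turned on single libraries. It averaged 316 ± 64.0 CPM in FL (SD, n = 3), 215 ± 126 CPM in ML (SD, n = 3) and 340 ± 166 CPM in control libraries (SD, n = 4), and its lowest libraries were ML 9 at 89.2 CPM and control 1 at 135 CPM. Against control, its log2 fold change was -0.10 in FL (SE 0.50), but -0.37 without control 1 and 0.16 without control 2. In ML it was -0.66 (SE 0.50), but -0.27 without ML 9, -1.16 without ML 10 and 0.32 with a surrogate variable. Cpt2, which releases the chain again inside the mitochondrion, ranged over 93.8 to 118 CPM in FL, 109 to 143 CPM in ML and 86.7 to 153 CPM in control libraries, and was at -0.29 (SE 0.28) in FL, or -0.44 without control 1, and at -0.01 (SE 0.27) in ML. Of the controls, control 1 lay below the FL libraries and the others above them. Slc22a5, the carnitine importer of the plasma membrane, ranged over 13.4 to 19.6 CPM in FL, 22.8 to 52.3 CPM in ML and 14.6 to 82.5 CPM in control libraries. It was at -1.06 (SE 0.57) in FL, and at -0.24 without control 2, whose 82.5 CPM stood far above the other controls. Of the 50-base words of the Slc22a5 transcript, 27.1% also occur in other genes, so its count may be incomplete or mixed.

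The 9 genes of the mitochondrial spiral all lay below 0 in FL against control, at a median of -0.26 and never beyond -0.58. Acadm (chromosome 3, 153922357 to 153944632, minus strand), which opens the spiral for medium chains, had 227, 242 and 271 CPM in FL, 410, 294 and 614 CPM in ML, and 432, 386, 339 and 320 CPM in control libraries. The FL values lay below all others, at a log2 fold change against control of -0.58 (SE 0.30) and an edgeR adjusted p of 1.00. Acadl, the long-chain dehydrogenase, was also lower in every FL library than in any control, but by the narrowest of margins, FL 7 and control 4 both being at 192 CPM. Etfdh, which passes the electrons of these dehydrogenases to the respiratory chain, ranged over 144 to 200 CPM in FL, 230 to 279 CPM in ML and 212 to 271 CPM in control libraries, with FL below both. Acadvl, Hadha and Acaa2, for very long chains, the trifunctional protein and thiolysis, were at -0.18, -0.13 and -0.08 in FL against control. Without control 1 they were at -0.28, -0.32 and -0.12, and Acads and Hadh, at -0.26 and -0.50 with it, were at -0.094 and -0.24. Acaa2 ranged over 899 to 1025 CPM in FL, 954 to 1698 CPM in ML and 956 to 1129 CPM in control libraries. Hadha ranged over 250 to 311 CPM in FL, 211 to 338 CPM in ML and 178 to 377 CPM in control libraries, where control 1 was the lowest library of all and the other controls lay above every FL library. Its partner Hadhb ranged over 92.5 to 122 CPM in FL, 129 to 205 CPM in ML and 110 to 147 CPM in control libraries, with FL below all ML libraries. Exons of Acadvl share 42.9% of their length with Dvl2 on the other strand, so its reads are uncertain where the counting did not use strand.

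Enzymes that prepare unsaturated fatty acids for the spiral lay below 0 in all 4 cases in FL, at a median of -0.53, and above 0 in all 4 cases in ML, at a median of 0.68, both against control. Decr1, the mitochondrial dienoyl-CoA reductase, had 149, 167 and 190 CPM in FL, 228, 497 and 381 CPM in ML, and 289, 237, 227 and 202 CPM in control libraries. Every FL library was below every other library, and ML 9 and ML 10 were above every control. Eci1, the mitochondrial enoyl-CoA isomerase (chromosome 17, 24426641 to 24439348, plus strand), had 95.5, 125 and 137 CPM in FL, 179, 681 and 284 CPM in ML, and 274, 155, 132 and 149 CPM in control libraries. FL 7 lay between controls 3 and 4, and ML 9 was more than any other library by a wide margin. In FL against control Eci1 was at -0.57 (SE 0.45), or -0.28 without control 1. Eci2, its relative found in peroxisomes and mitochondria, had 161, 146 and 182 CPM in FL, 173, 550 and 468 CPM in ML, and 215, 340, 216 and 184 CPM in control libraries, with ML 8 within the FL range. Decr2, the peroxisomal dienoyl-CoA reductase, ranged over 164 to 198 CPM in FL, 208 to 338 CPM in ML and 199 to 236 CPM in control libraries, with FL just below both.

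In peroxisomes all 5 genes lay below 0 in FL against control, at a median of -0.45. Acaa1b, a peroxisomal thiolase (chromosome 9, 119148023 to 119157093, minus strand), had 464, 702 and 623 CPM in FL, 746, 1008 and 1226 CPM in ML, and 1001, 1195, 748 and 1557 CPM in control libraries. FL lay below all others, at a log2 fold change against control of -0.92 (SE 0.33) and an edgeR adjusted p of 1.00. Its near copy Acaa1a was at -0.24 (SE 0.33), and FL 6 was higher than every control. Of the 50-base words of their transcripts, 35.5% of those of Acaa1b and 34.0% of those of Acaa1a occur in the other gene, so reads can be split between them. Ehhadh, the bifunctional enzyme of the PPARA-induced branch, ranged over 156 to 252 CPM in FL, 179 to 297 CPM in ML and 180 to 376 CPM in control libraries, and was at -0.65 (SE 0.34) in FL against control. Hsd17b4, its counterpart for branched chains, varied least: it had 363, 351 and 388 CPM in FL, 366, 447 and 470 CPM in ML, and 419, 489, 471 and 442 CPM in control libraries. FL lay below every control, at -0.31 (SE 0.25). Pex11a, which promotes peroxisome division, had 65.6, 86.1 and 82.6 CPM in FL, 98.1, 162 and 222 CPM in ML, and 83.8, 162, 84.4 and 96.8 CPM in control libraries. FL overlapped the controls there but not ML.

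The largest difference in FL was that of Vnn1, pantetheinase, a widely used marker of PPARA activity in mouse liver (ENSMUSG00000037440, chromosome 10, 23894688 to 23905343, plus strand). It had 13.6, 9.50 and 12.3 CPM in FL, from 367, 328 and 424 counts, against 30.9, 49.7 and 57.2 CPM in ML and 50.8, 49.9, 21.9 and 33.6 CPM in control libraries. The FL libraries lay together below all 7 others. FL against control stood at a log2 fold change of -1.72 (SE 0.37); edgeR gave an unadjusted p of 0.000583 and an adjusted p of 0.406. DESeq2, an alternative that called 0.353% of all genes in this comparison, gave an adjusted p of 0.00303, and over the other alternatives the adjusted p ran from 0.180 to 1.00 with log2 fold changes of -1.51 to -1.92. Angptl4, a secreted inhibitor of lipoprotein lipase, had 90.2, 128 and 116 CPM in FL, 101, 328 and 259 CPM in ML, and 165, 248, 172 and 167 CPM in control libraries. FL lay below all controls, and ML 8 lay within the FL range. Bdh1 ranged over 166 to 203 CPM in FL, 167 to 262 CPM in ML and 189 to 257 CPM in control libraries. Against control it was at -0.25 in FL (SE 0.27) and at -0.03 in ML (SE 0.27).

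**Figure D2:**
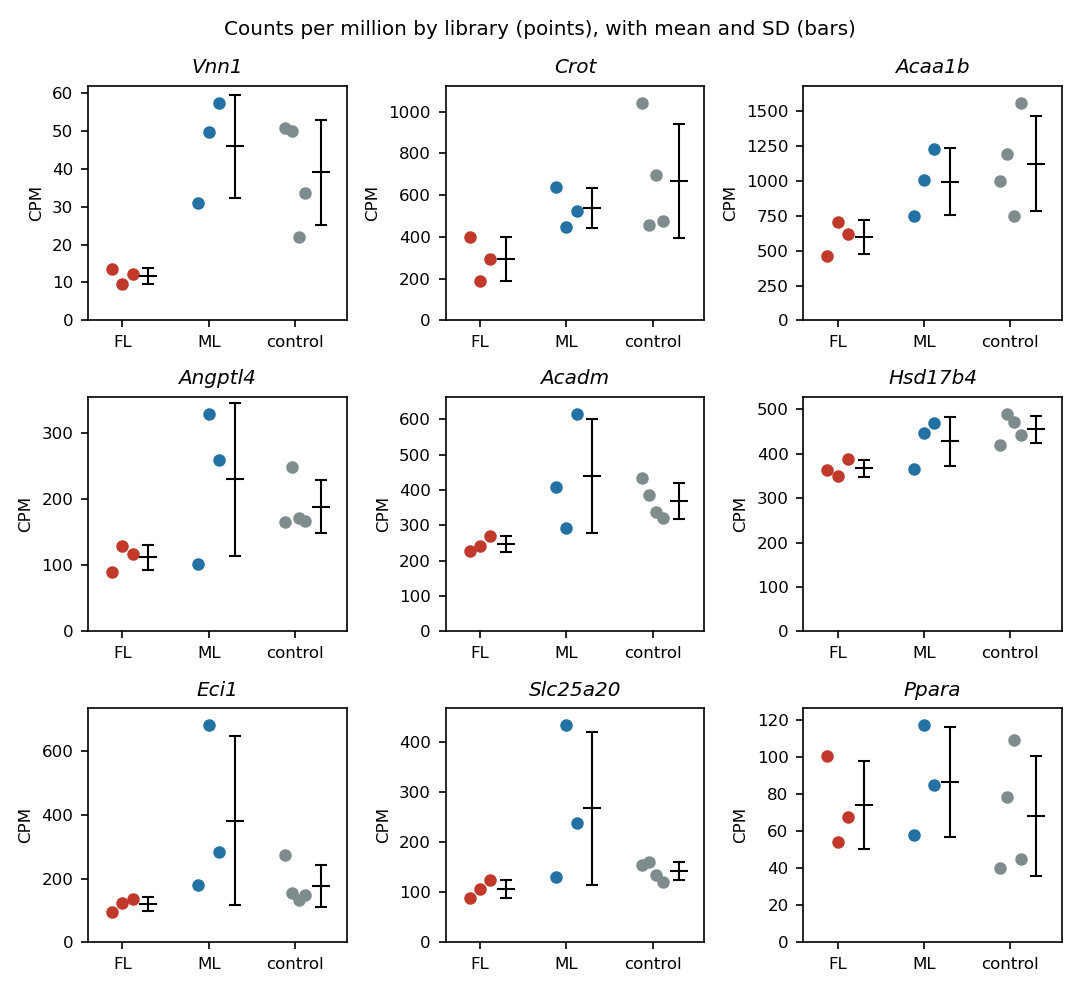
CPM in each library (points) with the group mean and SD (bars) for 9 of the genes, with FL on the left, ML in the middle and control libraries on the right; axes start at 0. Vnn1 in FL sits at 9.50 to 13.6 CPM, under all ML and control libraries, while Ppara overlaps across groups and Eci1 and Slc25a20 are spread in ML by ML 9.

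In counts over the 29 genes, 11 had all 3 FL libraries below all 4 controls, where 2.92% of all genes did. They were Acaa1b, Acadl, Acadm, Angptl4, Crot, Decr1, Decr2, Eci2, Etfdh, Hsd17b4 and Vnn1, and none of the 29 had FL above all controls. Without control 1 the count was 14, where 5.78% of all genes did so, and with CPM not scaled by TMM factors it was 5 (Acadm, Angptl4, Decr1, Eci2 and Vnn1), where 1.69% of all genes did so. An unadjusted edgeR p under 0.05 with a lower level in FL was reached by 4 genes (Acaa1b, Crat, Crot and Vnn1), where 1.9% of all genes did. That count was 2 without FL 5 or without FL 6, where 1.09% and 1.95% of all genes did so, and 8 without control 1 and ML 9, where 3.57% did.

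In ML livers against control, the values turned on ML 9 and ML 10. Slc25a20, the carrier that exchanges acylcarnitine for carnitine across the inner mitochondrial membrane (chromosome 9, 108662088 to 108684641, plus strand), had 87.7, 107 and 125 CPM in FL, 131, 433 and 239 CPM in ML, and 154, 161, 134 and 120 CPM in control libraries. ML 8 lay within the control range and ML 9 and ML 10 above it. In ML against control Slc25a20 stood at 0.91 (SE 0.37) and Eci1 at 1.10 (SE 0.44), both log2 fold changes having an adjusted p of 0.301 in edgeR. Without ML 9 these values were 0.39 for Slc25a20 and 0.40 for Eci1, and with a surrogate variable in the fit they were 0.32 and 0.17.

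Acads, the short-chain dehydrogenase, had 141, 173 and 188 CPM in FL, 200, 499 and 269 CPM in ML, and 268, 167, 182 and 186 CPM in control libraries. Its log2 fold change in ML was 0.69 (SE 0.34), or 0.24 without ML 9. Decr1 was at 0.63 (SE 0.31), or 0.36 without ML 9, Eci2 at 0.73 (SE 0.38), or 0.44 without ML 9, and Pex11a at 0.59 (SE 0.34), or 0.28 without ML 10. An unadjusted edgeR p under 0.05 with a higher level in ML was reached by 2 genes (Eci1 and Slc25a20), or 6.9% of the 29, where 8.81% of all genes did, a share no greater than the background. That count was 0 without control 3, control 4 or ML 9, where 3.69%, 3.75% and 0.928% of all genes did so, 5 without control 1, where 18.1% did, and 6 without ML 8, where 12.9% did. DESeq2 put none of the 29 genes past an adjusted p of 0.05 here, where it called 0.312% of all genes. No gene had all ML libraries below all controls, where 2.86% of all genes did, and none had them all above, where 2.17% of all genes did. By role, the peroxisomal genes were at a median of -0.09 in ML against control and the carnitine shuttle at -0.21, with 5 of 6 below 0, while the mitochondrial spiral was at 0.32 with 7 of 9 above 0. The direction of the shuttle was not stable, and Cpt2, 1 of the 5, was at only -0.01. With a surrogate variable, Slc22a5, Cpt1a, Slc25a20, Cpt2 and Crat were at 0.49, 0.32, 0.32, 0.22 and 0.36. Of the shuttle genes only Crot, at -0.47, was then below 0.

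Set directly against each other, FL livers had lower values than ML livers for 27 of the 29 genes, where 47.9% of all genes did. The median log2 fold change was -0.70, with a range of -1.96 to 0.56, beside 0.04 over all genes. The 2 exceptions were Cpt1a at 0.56 (SE 0.53) and Hadha at 0.02 (SE 0.34), and neither was stable: with a surrogate variable they were at -0.54 and -0.27 and all 29 genes lay below 0, and Cpt1a was at 0.17 without ML 9 and 1.06 without ML 10. Hadha was at -0.55 with offsets for exon length and GC content. This comparison uses the same FL and ML libraries as those against control and is not separate from them. Vnn1 was again the largest at -1.96 (SE 0.39), followed by Eci1 at -1.68 (SE 0.48), Slc25a20 at -1.33 (SE 0.40), Eci2 at -1.29 (SE 0.42) and Decr1 at -1.13 (SE 0.33), each with an edgeR adjusted p of 0.238. Hadh, the dehydrogenase of short and medium hydroxyacyl chains, had 232, 278 and 315 CPM in FL, 430, 616 and 543 CPM in ML, and 585, 300, 354 and 322 CPM in control libraries. FL and ML did not overlap, and the log2 fold change between them was -0.94 (SE 0.34; adjusted p of 0.238 in edgeR).

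All 3 FL libraries lay below all 3 ML libraries for 15 of the 29 genes, where 15.1% of all genes did. With unscaled CPM the count was 6 (Acads, Decr1, Eci1, Hadh, Slc25a20 and Vnn1), where 9.61% of all genes did. An unadjusted edgeR p under 0.05 with a lower level in FL was reached by 12 genes, where 12.4% of all genes did. When libraries were left out singly this count ran from 6, without FL 5, to 16, without ML 8, where 3.53% and 15.9% of all genes did so. It was 7 without ML 10, where 13.2% of all genes did so. In the other alternatives it ran from 6, with a surrogate variable, to 17, with limma-voom and sample quality weights, where 1.28% and 12% of all genes did so. DESeq2, whose own filter left 1883 genes with an adjusted p here, called 13.2% of those, 5 of the 29 genes among them: Eci1, Slc25a20 and Decr1 at 0.0363, Eci2 at 0.0422 and Hadh at 0.0460. How many of the 29 genes had an adjusted p there is not given, so these 5 cannot be compared with that share. Nor is it given whether Vnn1, which was not called, was removed by that filter. Without ML 9, the edgeR log2 fold change of Eci1 was -0.97 and that of Slc25a20 -0.81, while that of Vnn1 was -1.91. With a surrogate variable these were -0.53, -0.66 and -1.73.

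**Figure D3:**
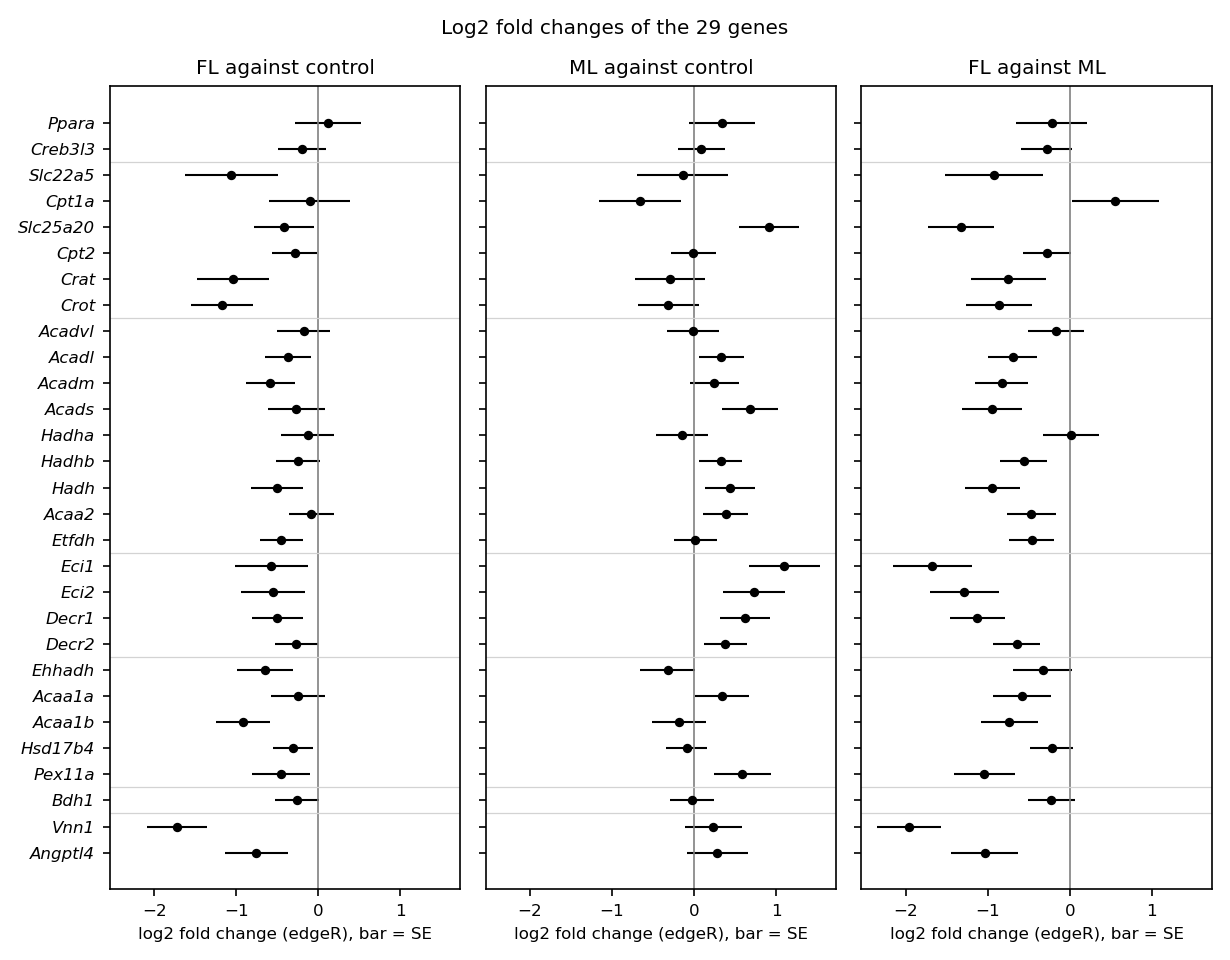
Log2 fold changes from edgeR (points) with their SE (bars) for the 29 genes, grouped by role down the page, in FL against control, ML against control and FL against ML from left to right. In FL against control 28 of 29 points lie left of 0, and in ML against control 18 lie right of it.

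Levels between genes were compared per kilobase of exon (RPKM, from the scaled CPM and the union of annotated exons). Averaged over the 10 libraries they ran from 4.83 for Crat to 737 for Acaa2, the mitochondrial thiolase. Acaa1b followed at 473, and Hsd17b4 at 124, Acadl at 114 and Creb3l3 at 110 lay close to each other, within each other's spread. At the low end, Slc22a5 at 9.55, Vnn1 at 13.6, Ppara at 19.6 and Hadhb at 20.5 followed Crat, Ppara and Hadhb lying within each other's spread. The order depends on the length used. For Hadhb the union of exons is 6595 bp and the longest coding transcript 2048 bp. Of the 50-base words of that transcript, 62.4% also occur in other genes, so the place of Hadhb in this order is uncertain. Vnn1 averaged 4.89 ± 0.869 RPKM in FL (SD, n = 3), 19.0 ± 5.62 RPKM in ML (SD, n = 3) and 16.2 ± 5.76 RPKM in control libraries (SD, n = 4).

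Most of the genes varied together from library to library. Over all 10 libraries the median Pearson r between pairs of the 29 genes, on log2 CPM, was 0.47, and 87.2% of pairs were above 0. After centring each group it was 0.32, and without control 1 and ML 9 it was 0.63 over 8 libraries. The libraries share groups, depth and composition, so these describe and do not test. No matching value over all genes is given, so the correlation is not shown to be particular to these genes. Decr2 followed the mean of the other 28 most closely (r = 0.94), then Acadl (r = 0.93) and Eci2 (r = 0.92). Cpt1a (r = -0.24), Hadha (r = 0.25), Acadvl (r = 0.26), Bdh1 (r = 0.27) and Ppara (r = 0.28) followed it least, and without control 1 and ML 9 Acadvl reached 0.83 and Cpt1a 0.35. Hadha and Hadhb, whose annotations end on either side of the 85 bases shown above, had an r of -0.02 with each other over 10 libraries. Of the 50-base words of Hadhb, 62.4% also occur in other genes, so its count may be incomplete or mixed.

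Short genes differed between libraries, so the 29 genes were also read by exon length. Over all genes the Spearman correlation of log2 fold change with exon length was 0.18 in FL against control, -0.45 in ML against control and 0.45 in FL against ML. Over the 29 genes it was 0.06, -0.19 and 0.14. In FL against control the 10 genes under 3000 bp had a median log2 fold change of -0.33 and the 19 longer ones -0.45; in FL against ML these were -0.67 and -0.75.

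**Figure D4:**
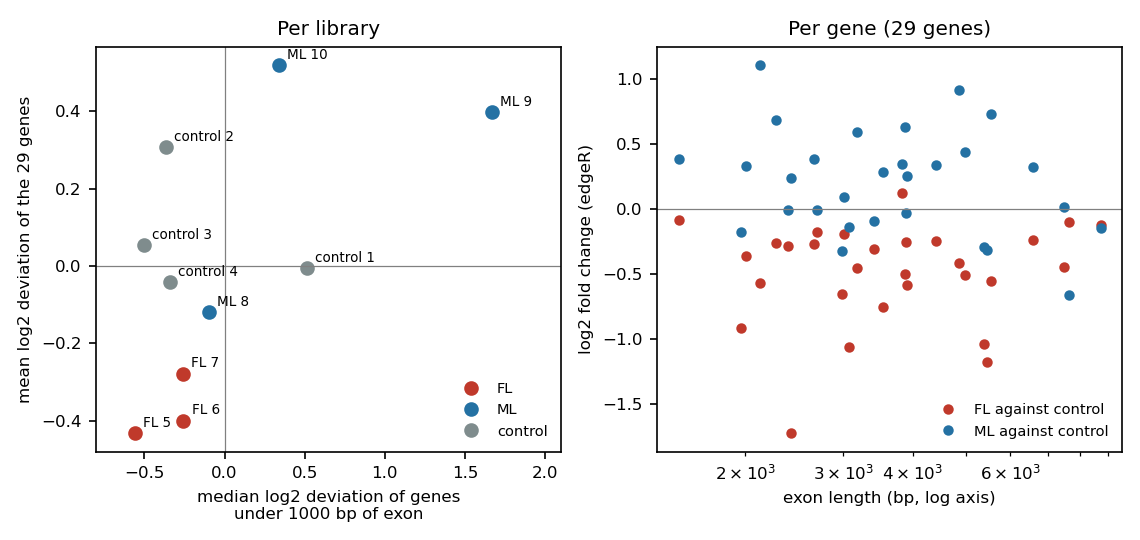
Left, the mean log2 deviation of the 29 genes in each library against the median deviation of genes under 1000 bp of exon, with FL in red, ML in blue and control in grey; ML 9 lies far right at 1.67 and the FL libraries at the bottom left. Right, log2 fold change of each of the 29 genes against its exon length on a log axis, for FL and for ML against control.

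Other genes of the pathway, 50 in a separate list of which 49 were tested, lay below 0 in FL against control in 43 cases, at a median log2 fold change of -0.41. In ML against control 19 lay below 0 and 30 above, at a median of 0.09. In FL against ML 36 lay below 0, at a median of -0.53. Of all genes tested, 55.3%, 52.9% and 47.9% lay below 0 in these comparisons, in the same order. None of the list passed an edgeR adjusted p of 0.05. An unadjusted edgeR p under 0.05 with a lower level in FL than in control was reached by 9, where 1.9% of all genes did. None reached it with a higher level, where 1.63% of all genes did. The lowest p in FL belonged to Cyp4a14, an omega-hydroxylase of fatty acids induced by PPARA, which had 2.81, 1.91 and 6.32 CPM in FL, 131, 194 and 513 CPM in ML, and 232, 730, 13.1 and 131 CPM in control libraries. All FL values lay below all others, at a log2 fold change against control of -6.23 (SE 1.23). Its relative Cyp4a10 was at -3.68 (SE 0.79). Whether reads are shared between these related genes was not measured. Abcd2, a peroxisomal importer of very long chains, was at -2.32 (SE 0.50).

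Pdk4, the kinase that closes pyruvate dehydrogenase in fasting, had 2.11, 1.51 and 2.15 CPM in FL, 1.92, 1.63 and 3.94 CPM in ML, and 3.76, 51.3, 12.9 and 8.23 CPM in control libraries. Control 1 lay within the ML range and the other controls above all 6 offspring of LIRKO parents. Against the shared controls, its log2 fold change was -3.31 in FL (SE 0.81) and -2.92 in ML (SE 0.79). In ML, Acacb, whose product malonyl-CoA restrains CPT1, was at -2.14 (SE 0.52), Acot3, a peroxisomal thioesterase, at 2.16 (SE 0.58). Etfbkmt, which methylates the electron transfer flavoprotein, had 84.8, 106 and 148 CPM in ML, against 51.4, 53.4, 26.2 and 65.4 CPM in control libraries. In FL against ML, Acot3 was at -4.07 (SE 0.70) and Acot4 at -1.82.

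Partners and coregulators of PPARA, 15 genes, lay near 0 in FL against control, at a median of 0.08 with 6 below 0. In ML against control 13 of them lay below 0, at a median of -0.69, and none passed. Of all genes tested, 55.3% lay below 0 in FL and 52.9% in ML, both against control. In FL, Pparg had 4.04, 4.95 and 4.08 CPM, against 9.17, 7.31, 9.76 and 10.9 CPM in control libraries, a log2 fold change of -1.09 (SE 0.30). The coactivator Ppargc1a was at -1.27 (SE 0.48). In FL against ML, the corepressor Ncor1 was at 1.15 (SE 0.47). It had 96.6, 92.2 and 60.3 CPM in FL, 40.2, 26.0 and 46.0 CPM in ML, and 26.0, 109, 87.0 and 92.1 CPM in controls. Its lowest libraries were thus ML 9 and control 1, and its value without them is not given. Genes that respond to insulin and feeding, 11 in all, lay below 0 in 9 cases in FL, at a median of -1.25, and in 10 cases in ML, at a median of -1.30, with none passing. Igfbp1, which insulin represses, was at -5.22 (SE 1.19) in FL against control. It had 5.56, 34.4 and 16.3 CPM in FL, 7.04, 20.5 and 160 CPM in ML, and 245, 1596, 521 and 435 CPM in control libraries. Both FL and ML thus lay below every control. Scd1, which insulin induces, was at -1.80 (SE 0.53) in FL and -2.48 in ML (SE 0.55). The part of feeding state in these results was not tested.

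Markers of other cells moved with the groups in places, and no list had a gene past the threshold. Against control, 55.3% of all genes tested lay below 0 in FL and 52.9% in ML. Adipocyte genes, which include PPAR targets, lay below 0 in FL against control for all 5 tested of 8, at a median log2 fold change of -2.98. Their summed level was 9.93 to 16.1 CPM in FL, 25.7 to 49.6 CPM in ML and 26.8 to 109 CPM in control libraries, and the defining markers Adipoq and Plin1 were at 0 in all FL libraries, at 0.031 to 1.96 CPM in ML, and at 0 in 2 and 3 of the 4 controls. B cell genes lay below 0 in FL for 8 of 8 and sinusoidal endothelial genes for 10 of 10, with summed levels of 6.26 to 11.2 and 220 to 244 CPM in FL, and 7.41 to 27.6 and 230 to 326 CPM in control libraries. Erythroid genes lay below 0 for all 5 tested in FL and above 0 for all 5 in ML. Their sums were 127 to 249.4 CPM in FL, 313 to 2114 CPM in ML and 184 to 626 CPM in control libraries. The 2114 CPM was that of ML 9 alone. ML 8 at 313 CPM and ML 10 at 382 CPM lay within the control range. Macrophage genes lay below 0 for 5 of 10 in FL and 3 of 10 in ML. Their sums were 313 to 429 CPM in FL, 285 to 1338 CPM in ML and 294 to 522 CPM in control libraries. The 1338 CPM was again that of ML 9. ML 8 at 459 CPM lay within the control range and ML 10 at 285 CPM just below it. Stellate genes lay below 0 for 8 of 10 in FL. Their sums were 272 to 349 CPM in FL, 321 to 624 CPM in ML and 356 to 431 CPM in control libraries. Here too the highest ML sum was that of ML 9. ML 8 at 321 CPM and ML 10 at 332 CPM lay below every control. Cholangiocyte genes lay below 0 for 1 of 7 tested in FL and 3 of 7 in ML, and T and NK cell genes for 6 of 8 in FL and 1 of 8 in ML. The part of other cells in the levels of the 29 genes was not tested.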

How the data were processed

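Raw counts per gene of 10 mouse liver libraries were deposited by the authors in 1 table, made with STAR and featureCounts on GRCm38, per the submitters' processing notes. Directional, paired-end libraries of polyadenylated RNA were sequenced, per the labels' protocols. No version, annotation release or strand setting is recorded in the sources used, so reads of overlapping and near-identical genes are uncertain. GENCODE M21 matched 45229 of 46071 rows by identifier (842 did not match) and supplied symbols, coordinates and exon lengths; promoters are from RefSeq.

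edgeR 4.0.16 (R 4.3.3) was applied to all 10 libraries with TMM factors, a filter at a minimum count of 10, a coefficient per group and a robust quasi-likelihood F test. This tested 14820 genes with 7 residual degrees of freedom and a common biological coefficient of variation of 0.448. P-values are two-sided and Benjamini-Hochberg adjusted over all genes tested; 3 comparisons were made, 2 of which share the controls. CPM used the tested genes' sum and TMM factors, and RPKM divided it by exon length. The SE is the log2 fold change divided by the square root of F. Chi-square per degree of freedom between libraries of a group was 82.5 to 573, beyond counting noise, and each library counted once. The procedure was tested on simulated data.

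Values in every library are given for Ppara and for the 6 genes with the lowest p in each comparison; of other lists, up to 4 genes per comparison were named from those with the lowest p, and some genes of these lists are not reported here. Values in every library for Hsd17b4 and means for other genes among the 29 were added by role after their values were seen. The 29 genes, the other lists and the alternatives were chosen with earlier results of these data known. Alternatives were DESeq2 1.42.0, limma-voom (limma 3.58.1) with or without quality weights, other scalings and filters, the compared groups only, a surrogate variable (sva 3.50.0), offsets for exon length and GC content, and leaving out libraries.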

Additional observations from a re-analysis of the deposited data

Results flagged for a closer look

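In 4 genes, 1 control library stood far from the other 3 by Dixon's criterion at the 95% level, which flags about 1 group in 20 by chance. Slc22a5 was at 82.5 CPM in control 2, against 14.6 to 26.2 CPM in the other controls. Pex11a was at 162 CPM in control 2, against 83.8 to 96.8 CPM in the others. Angptl4 was at 248 CPM in control 2, against 165 to 172 CPM in the others. Eci1 was at 274 CPM in control 1, against 132 to 155 CPM in the others. The share of all genes flagged by this criterion is not given, so these 4 are not shown to be unusual. Groups of 3 libraries were not examined in this way. Without control 2 the log2 fold change in FL against control was -0.24 for Slc22a5, -0.18 for Pex11a and -0.59 for Angptl4, and without control 1 it was -0.28 for Eci1.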

How the results depend on the processing

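No paired analysis was possible because each library has its own number and no number is shared between groups. The medians of the 29 genes kept their direction in all alternatives run: -0.49 to -0.32 in FL against control, 0.12 to 0.45 in ML against control and -0.83 to -0.49 in FL against ML. The number of the 29 genes called at an adjusted p under 0.05 was 0 in every edgeR and limma alternative, and with DESeq2 it was 1 in FL against control, 0 in ML against control and 5 in FL against ML. Over all genes DESeq2 called 52, 46 and 248, where edgeR called 2, 0 and 1. The number below 0 in ML against control, 11, was 5 with a surrogate variable and ran from 6 to 13 when libraries were left out singly. Not-overlapping counts of 11 in FL against control and 15 in FL against ML were 5 and 6 with CPM not scaled by TMM factors, an alternative added after seeing the data. The cause of these changes was not tested.

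The log2 fold change of Ppara turned in sign. In FL against control it ran from -0.16 to 0.45 when libraries were left out singly (-0.06 without control 1, -0.03 without control 4, -0.16 without FL 5) and was -0.059 without control 1 and ML 9. Without the same libraries it was -0.12 in ML against control and 0.057 in FL against ML, and in FL against ML it was 0.041 without ML 9 and -0.50 without FL 5. Over the 29 genes and all alternatives the sign turned in 8 of 522 cases in FL against control, 58 of 522 in ML against control and 12 of 493 in FL against ML. The lowest count of any of the 29 genes in any library was 217 (Crat in control 1).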
